A study of Mus musculus with 8 samples.

Results

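The proteasome genes of mouse leukaemia stem cells were compared between wild-type and Nynrin-knockout leukaemia. The genes were chosen by symbol alone, as Psma, Psmb, Psmc, Psmd, Psme, Psmf or Psmg followed by a number. The rule found 48 of the 48500 genes in the deposited table. The series sorted leukaemia stem cells, defined as GFP+, c-Kit+ and Gr-1-, from bone marrow of mice whose acute myeloid leukaemia was driven by HOXA9 and MEIS1. All 8 libraries share that driver and that gate. The 4 WT libraries (WT1 to WT4) carry Nynrin+/+ and the 4 Nynrin-KO libraries (KO1 to KO4) carry Nynrin-/-, and no treatment is given for either group. The sources used here do not state strain, age, time of sampling or which part of Nynrin was deleted. The labels do not state whether each library is a different mouse, and the p-values therefore reflect only how these libraries vary, which may be technical.

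The proteasome is the protease that breaks down proteins tagged with ubiquitin. Its 20S core is a barrel of stacked rings, built from alpha subunits that form the gate and beta subunits that include the catalytic sites. The 19S cap binds ubiquitin chains, removes them and feeds the unfolded protein into the barrel through a ring of ATPases. In blood cells, and more strongly after interferon, the catalytic subunits Psmb5, Psmb6 and Psmb7 can be replaced by Psmb8, Psmb9 and Psmb10, which gives the immunoproteasome that cuts peptides for display on MHC class I. The PA28 activator of Psme1 and Psme2 is inducible by interferon as well. Of the 48 genes, 14 encode the constitutive 20S core, 3 the inducible beta subunits and 2 the tissue-specific core subunits of testis and thymus. A further 17 encode the 19S cap and 3 its assembly chaperones, 4 encode activators, 1 an inhibitor and 4 assembly chaperones of the core.

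Sequences before the RefSeq starts of the catalytic genes are shown because the results turn on how the inducible subunits compare with the constitutive ones they replace. Each run is the 250 bases before the RefSeq start of the gene, 5′ to 3′ on the gene's strand, from GRCm38.p6. Capitals mark matches on either strand to 4 motifs, namely the antioxidant response element core (TGACNNNGC), the interferon-stimulated response element (GAAA, any 2 bases, GAAA), the gamma-activated site (TTCNNNGAA) and the CCAAT box (CCAAT). The table holds no entry for Psmb7. RefSeq and GENCODE starts differ, and the windows of Psmb8 and Psmb9 lie wholly inside the GENCODE spans given with their levels. The regions are chr14:54617996-54618245 on the minus strand for Psmb5, chr17:34197945-34198194 on the plus strand for Psmb8, chr11:70525107-70525356 on the plus strand for Psmb6, chr17:34187331-34187580 on the minus strand for Psmb9 and chr8:105938393-105938642 on the minus strand for Psmb10.
Psmb5: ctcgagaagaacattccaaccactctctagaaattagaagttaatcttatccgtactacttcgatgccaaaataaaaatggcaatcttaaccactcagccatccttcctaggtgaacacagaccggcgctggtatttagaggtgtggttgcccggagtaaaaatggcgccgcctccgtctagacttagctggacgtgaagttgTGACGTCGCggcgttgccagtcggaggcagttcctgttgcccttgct
Psmb8: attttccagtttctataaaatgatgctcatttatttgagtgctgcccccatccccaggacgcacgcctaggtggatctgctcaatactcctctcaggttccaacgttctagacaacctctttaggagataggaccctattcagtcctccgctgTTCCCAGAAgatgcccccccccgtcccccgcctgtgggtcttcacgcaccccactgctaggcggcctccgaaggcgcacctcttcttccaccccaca
Psmb6: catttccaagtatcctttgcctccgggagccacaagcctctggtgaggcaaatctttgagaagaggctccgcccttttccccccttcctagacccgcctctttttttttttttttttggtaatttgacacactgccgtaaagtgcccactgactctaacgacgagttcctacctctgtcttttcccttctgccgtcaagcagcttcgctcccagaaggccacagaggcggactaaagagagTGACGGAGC
Psmb9: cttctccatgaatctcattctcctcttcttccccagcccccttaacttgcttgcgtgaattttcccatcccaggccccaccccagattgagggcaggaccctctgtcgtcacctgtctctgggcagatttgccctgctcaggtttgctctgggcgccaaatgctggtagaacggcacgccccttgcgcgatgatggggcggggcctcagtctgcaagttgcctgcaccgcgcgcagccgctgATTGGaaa
Psmb10: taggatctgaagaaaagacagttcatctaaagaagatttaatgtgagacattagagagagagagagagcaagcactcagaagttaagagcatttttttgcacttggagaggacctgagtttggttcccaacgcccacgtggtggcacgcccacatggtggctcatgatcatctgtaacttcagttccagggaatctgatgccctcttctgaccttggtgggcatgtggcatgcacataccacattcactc

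Psmb5 and Psmb6 each held the antioxidant response element core, the sequence to which the NRF factors that control constitutive proteasome genes bind. Psmb8 held 1 gamma-activated site match, Psmb9 held 1 CCAAT box on the opposite strand, and no match to the 4 motifs lay in the Psmb10 window. RefSeq promoters were found for 40 of the 48 genes. Among these, 12.5% held the antioxidant response element core against 10.2% of all 32851 promoters searched, so the share was near the background. The interferon-stimulated response element was found for 3 of the 40 genes (Psmb3, Psmd4 and Psmd9), and in 2.98% of all promoters. The gamma-activated site was found for 2 (Psmb8 and Psmg1), against 7.02% of all promoters, and the CCAAT box for 14, against 33.8%. The motifs do not overlap in the sequences printed.

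The unit is FPKM, reads scaled to transcript length and to library depth. Recovered depth was highest in WT1, at 33.09 M reads (M for mega), and lowest in KO3, at 1.83 M. Kit, the gate's antigen, was at 2.63 to 6.395 FPKM in all 8 libraries. Cd34 was at 55.7 to 151 FPKM in WT but at 5.54 to 7.30 FPKM in Nynrin-KO. Hoxa9 was at 0.569 to 1.90 FPKM in WT and 1.70 to 6.38 in Nynrin-KO. Meis1 was at 0.664 to 0.898 FPKM in WT and 2.03 to 5.125 in Nynrin-KO. Of 6 markers of the sorted leukaemia stem cell 2 fell (Cd34 and Flt3), 2 rose (Hoxa9 and Meis1) and 2 did not pass (Kit and Myb). Ly6g, part of the Gr-1 antigen that was gated out, was at 0.707 FPKM in WT1, 32.7 to 49.3 in WT2 to WT4 and 93.5 to 264 in Nynrin-KO. The summed level of 9 mature neutrophil markers was 2969 FPKM in WT1, reached at most 103950 FPKM in WT and ran from 123750 to 280050 FPKM in Nynrin-KO. Of those markers 4 rose (Ly6g, Retnlg, Mmp8 and Cxcr2), 5 did not pass and none fell. S100a8, S100a9, Ngp and Camp had the highest mean levels, which dominate the sum, and did not pass. Over all genes tested 14.0% rose and 13.8% fell, and these shares belong beside each marker count given here. The summed level of 8 monocyte and macrophage markers ran from 129 to 212 FPKM in WT and from 258 to 609 FPKM in Nynrin-KO, and 4 rose. Of 6 lymphoid markers 2 were tested and both rose, namely Nkg7 (means of 4.45 and 143 FPKM) and Cd79a (0.365 and 4.75 FPKM). The T cell gene Cd3g was not tested. It was at 0 to 0.201 FPKM in WT and 0.137 to 1.29 FPKM in Nynrin-KO, with overlapping groups. Its highest value, in KO3, came from 6 reads. Of 6 red cell markers 2 were tested and both rose, Hbb-bs (listed at 0 in 3 WT libraries, 7.79 FPKM on average in Nynrin-KO) and Hba-a1. Of 4 mast cell and basophil markers 3 rose (Cpa3, Hdc and Ms4a2), and their list summed to 3.65 to 10.3 FPKM in WT and to at least 47.1 FPKM in Nynrin-KO. The part of these cell types in the results was not tested. Meis1, Cd79a, Hbb-bs, Hba-a1 and Ms4a2 were below 1 FPKM in every WT library. They passed the filter of at least 1 FPKM in at least 4 libraries only through Nynrin-KO. Only a rise could be called for these genes, and their calls carry no weight. The X-inactivation transcript Xist was at 15.2 FPKM or more in WT, 12.7 FPKM in KO1 and at most 0.366 FPKM in KO2 to KO4. The Y-linked Ddx3y was at most 0.111 FPKM in WT, 2.18 FPKM in KO1 and 18.2 FPKM or more in KO2 to KO4. KO1 thus held both transcripts, and the reason was not tested. Every Nynrin-KO library held more Ddx3y than every WT library, and so genotype cannot be told apart from sex. Nynrin was low in both groups (0.008 to 0.286 and 0.0982 to 0.437 FPKM), which does not check the genotype labels. In bulk samples, fewer cells of a type and less RNA per cell cannot be told apart.

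The constitutive proteasome was lower in Nynrin-KO. Of the 46 genes that passed the filter of at least 1 FPKM in at least 4 libraries, 23 fell and none rose (limma on log2(FPKM + 1), adjusted p under 0.05), and 36 had an unadjusted p under 0.05, which 40.5% of all genes tested had. Over all 12524 genes tested, 13.8% fell. The change was below 0 for 44 of the 46, against 51.8% of all genes tested, with a median log2 change of -0.86 against -0.03. In 19 genes every Nynrin-KO library lay below every WT library, a pattern found for 15.0% of all genes tested. The 2 genes that did not pass the filter were Psma8 and Psmb11. Of the 23 genes, 7 kept their call when any single library was left out (Psma3, Psma7, Psmb1, Psmb2, Psmb3, Psmb7 and Psmd1). The count depended on single libraries. It was 9 without WT1, 8 without WT2 and 9 without KO1, with 10.5%, 9.66% and 10.4% of all genes fallen in those fits. Without WT1 and KO1 together 4 of 46 fell, or 8.70%, which is near the 7.62% of all genes, while the median log2 change was -0.64 and 41 genes stayed below 0. Within the 5 libraries with the higher level of Gm10800 (WT2, WT3, WT4, KO1 and KO3), 9 fell against 5.88% of all genes.

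**Figure D1:**
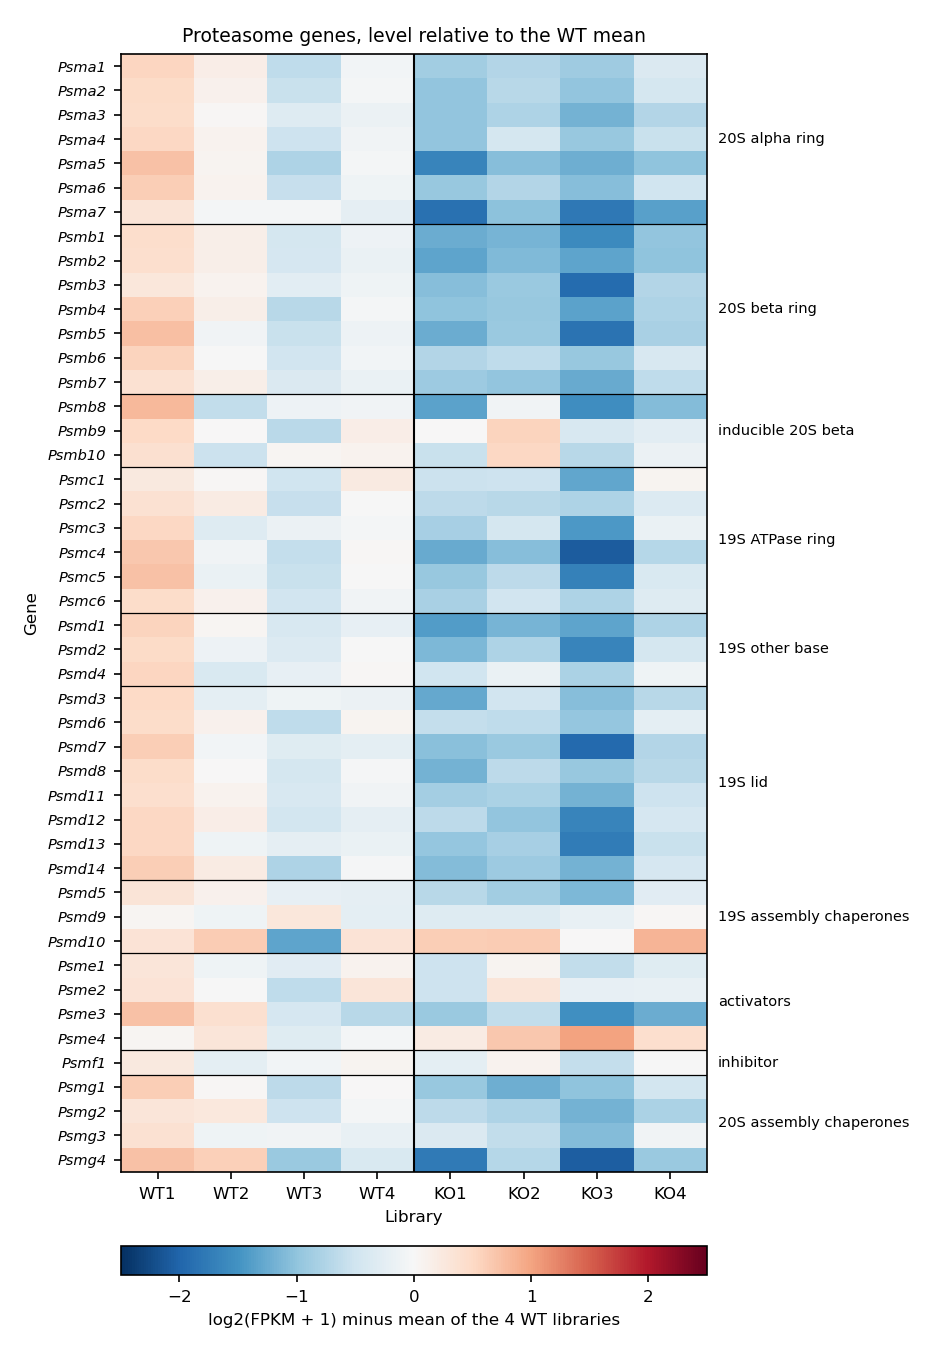
Level of the 46 tested proteasome genes in each library, as log2(FPKM + 1) minus the mean of the 4 WT libraries, with genes in rows by structural group and libraries in columns. WT1 is the reddest column and KO3 the bluest over most rows, while the rows of Psmb9, Psmb10, Psme1, Psme2 and Psmf1 show no split by group.

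The libraries of a group were ordered alike across the genes. WT1 was the highest of the 8 libraries for 41 of the 46 genes and KO3 the lowest for 32. The summed level of the 14 constitutive core genes was 2719, 2030, 1424 and 1769 FPKM in WT1 to WT4 and 840, 1034, 768 and 1116 FPKM in KO1 to KO4. The groups did not overlap, and the lowest WT sum belonged to WT3, the shallowest WT library, as the lowest Nynrin-KO sum belonged to KO3, the shallowest of all. Set side by side at like depth, KO3 (1.83 M reads) was below WT3 (1.96 M) for all 14 core genes, with a median log2 difference of -0.75. KO4 (28.7 M) was below WT1 (33.09 M) for all 14, where the median was -1.16. WT1 was the highest of the 8 libraries for all 14 core genes, so any library set beside it would be lower. KO3 was the lowest of the 8 for 10 of them. Both pairs are therefore values only and do not test depth. The part of depth and of neutrophil genes in these levels was not tested.

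Among the 7 alpha ring genes, which form the gate of the barrel, 4 fell, against 13.8% of all genes tested. These were Psma2, Psma3, Psma5 and Psma7. Psma2 lost its call without WT1, WT2, WT4, KO1, KO2 or KO3, and Psma5 without WT2 or KO1. Psma7 (ENSMUSG00000027566, mm10 chromosome 2, 180036374 to 180042433) had the largest change of all core genes. Psma7 was at 399, 308, 310 and 274 FPKM in WT1 to WT4 and 87.4, 157, 91.4 and 125 FPKM in KO1 to KO4. The groups were well apart, with means of 323 ± 53.5 and 115 ± 32.8 FPKM (SD, n = 4 each) and a log2 change of -1.50 (SE 0.24, limma adjusted p = 0.00325). Psma7 kept its call in all 20 alternative fits. Psma1 had the smallest change, with 292, 228, 130 and 192 FPKM in WT and 110, 121, 108 and 157 FPKM in Nynrin-KO. Here KO4 lay above WT3, so the groups overlapped, and the log2 change of -0.71 was not past the threshold (SE 0.27, adjusted p = 0.0767). Psma4 and Psma6 also did not pass, at log2 changes of -0.74 and -0.81.

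Of the 7 constitutive beta ring genes 6 fell, with Psmb6 the exception, against 13.8% of all genes tested. Psmb4 lost its call without WT1, WT2, WT4, KO1, KO2 or KO3. Psmb1, a structural subunit of the ring, was at 178, 146, 96.5 and 120 FPKM in WT and at 55.1, 58.5, 43.1 and 66.3 FPKM in Nynrin-KO. Every Nynrin-KO library was below every WT library, and the log2 change of -1.24 was the largest of the ring (SE 0.24, limma adjusted p = 0.00625). Psmb2, another structural subunit, went from 271 ± 68.1 to 116 ± 12.9 FPKM (SD, n = 4 each). Both Psmb1 and Psmb2 kept their calls in all 20 alternative fits. Over the whole constitutive core 10 of 14 genes fell and the median log2 change was -0.98. Without WT2 or without KO1 6 fell, where 9.66% and 10.4% of all genes did. The median lay between -1.16 and -0.65 over the 20 alternatives, and all 14 genes stayed below 0 in each of them.

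**Figure D2:**
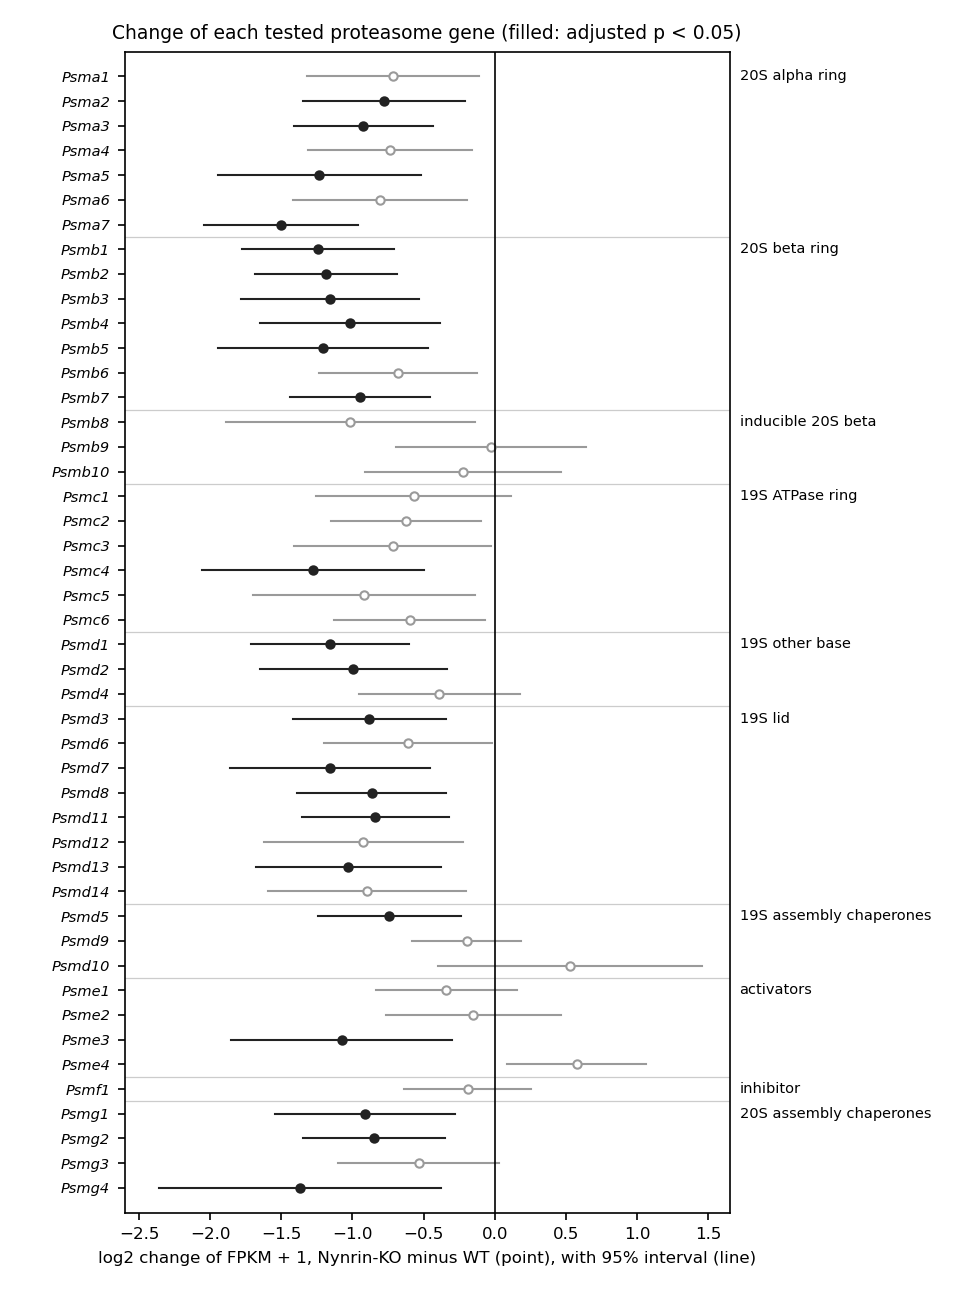
Log2 change of FPKM + 1 between Nynrin-KO and WT for each tested proteasome gene (point) with its 95% interval (line), by structural group. Filled points passed an adjusted p of 0.05. All 14 constitutive core genes and all 17 cap genes lie left of 0, while Psmd10 and Psme4 lie right of it without passing.

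The catalytic genes were described in pairs of a constitutive subunit and its inducible replacement. Psmb5 (chromosome 14, 54614119 to 54618022), which carries the chymotrypsin-like site, was at 158, 87.4, 62.9 and 84.9 FPKM in WT and at 38.5, 48.4, 25.0 and 52.7 FPKM in Nynrin-KO. The groups did not overlap and Psmb5 fell with a log2 change of -1.21 (SE 0.33, limma adjusted p = 0.0245), though not without WT2 or without KO1. Psmb8 (chromosome 17, 34197721 to 34201454), its inducible replacement, was at 224, 82.1, 116 and 119 FPKM in WT and at 49.3, 119, 42.5 and 58.7 FPKM in Nynrin-KO. KO2 stood at the level of WT3 and WT4 while the other Nynrin-KO libraries were below all WT libraries. The log2 change of Psmb8 was -1.02 (SE 0.39, adjusted p = 0.0804), and it passed the threshold without KO2.

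Psmb6 (chromosome 11, 70525367 to 70527858), which carries the caspase-like site, was at 178, 121, 87.0 and 116 FPKM in WT and at 72.4, 77.8, 62.3 and 91.8 FPKM in Nynrin-KO. Only KO4 reached into the WT range, and the log2 change of -0.68 did not pass (SE 0.25, limma adjusted p = 0.0678). Psmb9 (chromosome 17, 34181987 to 34187764), its inducible replacement, was at 37.7, 26.8, 16.3 and 29.7 FPKM in WT and at 26.8, 39.1, 19.9 and 21.8 FPKM in Nynrin-KO. The groups overlapped throughout, with means of 27.6 ± 8.85 and 26.9 ± 8.65 FPKM (SD, n = 4 each). The log2 change of -0.02 had a 95% interval from -0.69 to 0.64, so changes within that range are not excluded. The exons of Psmb9 overlap those of Tap1 on the opposite strand, and the counting is not stated to use strand.

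Psmb7 (chromosome 2, 38588036 to 38644087), which carries the trypsin-like site, was at 21.6, 18.1, 12.3 and 14.3 FPKM in WT and at 8.14, 7.73, 6.15 and 10.1 FPKM in Nynrin-KO. Psmb7 fell with a log2 change of -0.95 (SE 0.22, limma adjusted p = 0.0127), and it kept its call when any single library was left out. Psmb10 (chromosome 8, 105935735 to 105938444), its inducible replacement, was at 50.8, 26.1, 40.0 and 41.2 FPKM in WT and at 25.7, 55.4, 23.4 and 34.6 FPKM in Nynrin-KO. KO2 held the highest level of all 8 libraries and KO3 the lowest. The log2 change of Psmb10 was -0.22, with a 95% interval from -0.91 to 0.47.

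**Figure D3:**
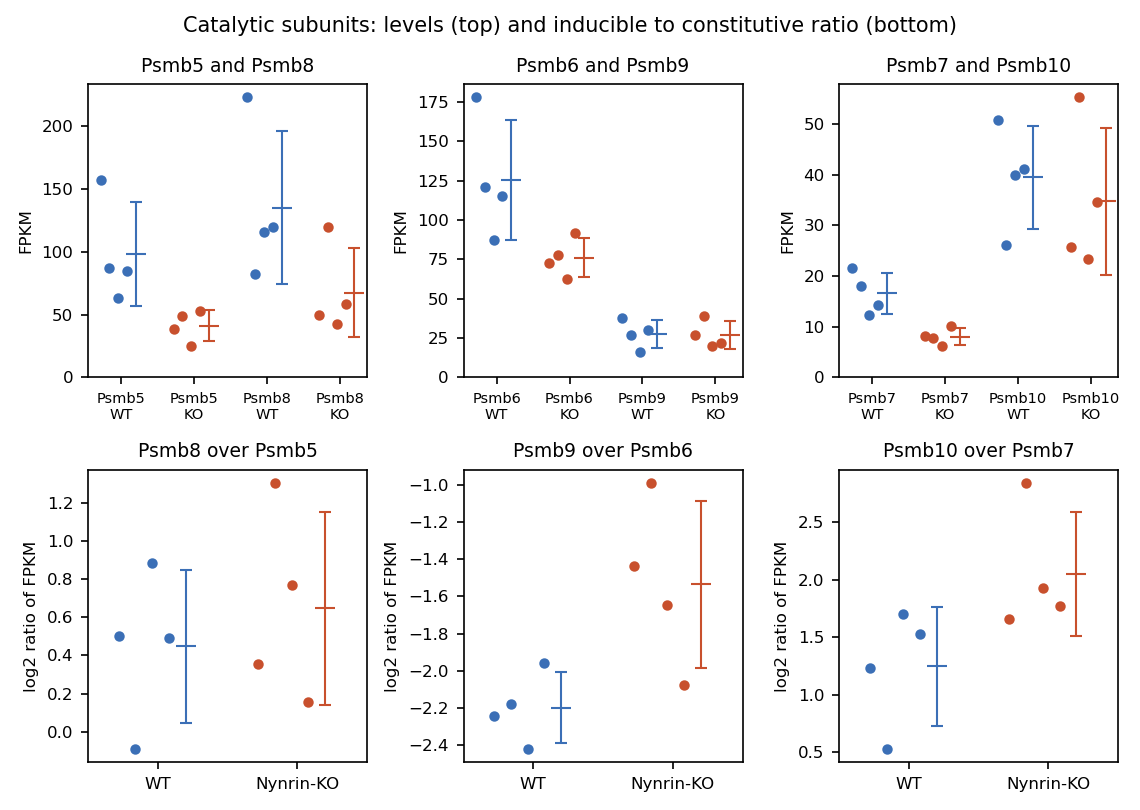
Levels of the 3 constitutive catalytic genes and their inducible replacements in FPKM (top), and the log2 ratio of each pair within a library (bottom), with WT in blue and Nynrin-KO in red. Points are the 4 libraries of a group and bars the mean with its SD; KO2 has the highest ratio in each pair.

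The ratio within a library does not depend on scaling between libraries. The ratio of Psmb8 to Psmb5 was 1.42, 0.939, 1.84 and 1.41 in WT and 1.28, 2.47, 1.70 and 1.11 in Nynrin-KO. The ranges overlapped and the mean log2 ratio differed by 0.20 (exact two-sided permutation p = 0.600). The ratio of Psmb9 to Psmb6 was 0.211, 0.221, 0.187 and 0.257 in WT and 0.370, 0.503, 0.320 and 0.238 in Nynrin-KO. Here KO1, KO2 and KO3 were above every WT library and KO4 was within the WT range, with a difference of 0.66 in log2 (exact permutation p = 0.0571, 0.0857 adjusted over the 3 pairs). The ratio of Psmb10 to Psmb7 was 2.35, 1.44, 3.24 and 2.88 in WT and 3.16, 7.16, 3.80 and 3.41 in Nynrin-KO. Only KO1 lay within the WT range, and the difference was 0.80 in log2 (exact permutation p = 0.0571, 0.0857 adjusted). None of the 3 ratios passed the threshold, where 4 against 4 libraries can give 0.0286 at the lowest before adjustment. After adjustment over the 3 pairs, a fully separated ratio could not have passed unless another was fully separated too. A different response of the inducible genes was neither shown nor excluded.

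Levels per length can be compared between genes. In WT the order of the mean levels ran from Psma7 (323 FPKM), Psmb2 (271) and Psma1 (211) down to Psmb10 (39.5), Psmb9 (27.6) and Psmb7 (16.6). Psma7 and Psmb2 overlapped in their WT ranges (274 to 399 and 198 to 354 FPKM), as did most neighbours in the order. Psmb8 was the sixth of the 17 core and inducible genes, between Psma6 (146 FPKM) and Psmb1 (135 FPKM). The level of Psmb7 was divided by its longest annotated transcript of 2849 bases, against 859 bases for Psmb2, and a level per length depends on that choice.

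The 19S cap was lower as well, with 8 of its 17 genes fallen (47.1%, against 13.8% of all genes) and a median log2 change of -0.88. The count of the cap rested on single libraries, being 1 without WT1, 2 without WT2, 2 without KO1 and 13 without WT3. The shares of all genes that fell in those fits were 10.5%, 9.66%, 10.4% and 14.8%, so without WT1, WT2 or KO1 the cap's share was below or near the background. All 17 stayed below 0 in each of the 20 alternative fits. In the ATPase ring, the motor that unfolds substrates, 1 of 6 genes fell, Psmc4. That is 16.7%, near the 13.8% of all genes tested. It was at 120, 70.8, 49.2 and 76.9 FPKM in WT and at 31.0, 35.5, 17.2 and 45.5 FPKM in Nynrin-KO. The groups of Psmc4 did not overlap, with KO4 just below WT3, and the log2 change was -1.28 (SE 0.35, limma adjusted p = 0.0245). The Psmc4 call was lost without WT1, WT2, WT4 or KO1. Psmc1 changed least in the ring, with means of 45.8 ± 10.2 and 31.7 ± 12.2 FPKM (SD, n = 4 each) and a log2 change of -0.57 that did not pass. The other 4 ring genes had log2 changes between -0.92 and -0.60.

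In the rest of the base Psmd1 and Psmd2 fell and Psmd4 did not pass. Psmd2 lost its call without WT1, WT2, WT4, KO1, KO2 or KO3. Psmd1, the large scaffold that holds the base together with Psmd2, was at 76.03, 53.5, 39.0 and 44.6 FPKM in WT and at 19.05, 22.6, 20.1 and 29.7 FPKM in Nynrin-KO. Every Nynrin-KO library was below every WT library, the log2 change was -1.16 (SE 0.25, limma adjusted p = 0.00935), and the call held in all 20 alternative fits. Psmd4, a ubiquitin receptor, was at 44.7 ± 13.4 and 33.5 ± 7.23 FPKM (SD, n = 4 each), a log2 change of -0.39 with a 95% interval from -0.95 to 0.18. In the lid 5 of 8 genes fell (62.5%, against 13.8% of all genes), namely Psmd3, Psmd7, Psmd8, Psmd11 and Psmd13. Psmd7, the partner of the deubiquitinase Psmd14, went from 55.3 ± 18.4 to 24.4 ± 7.99 FPKM (log2 change -1.16, SE 0.31, limma adjusted p = 0.0234). Psmd7 lost its call without WT1 or WT2, and Psmd3, Psmd8, Psmd11 and Psmd13 also lost theirs without WT1. No lid gene passed in the fit without WT1, where 10.5% of all genes fell. Psmd6 changed least in the lid (log2 change -0.61, adjusted p = 0.113), and Psmd14 stood just outside the threshold (log2 change -0.90, adjusted p = 0.0572).

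The assembly chaperones of the cap did not move as a block. Psmd5 fell (log2 change -0.74, limma adjusted p = 0.0354), with means of 19.3 ± 3.82 and 11.2 ± 3.09 FPKM (SD, n = 4 each), but not without WT1, WT2, KO1, KO2 or KO3. Psmd9 was at 5.90 ± 1.11 and 4.996 ± 0.721 FPKM and did not pass. Psmd10, also known as gankyrin and X-linked, was at 13.4, 16.5, 3.56 and 13.3 FPKM in WT and at 16.3, 16.7, 10.3 and 19.5 FPKM in Nynrin-KO. Its log2 change of 0.53 had a 95% interval from -0.40 to 1.46, and WT3 stood below the other libraries of both groups.

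The activators differed among themselves. Psme1 (chromosome 14, 55578123 to 55581529) and Psme2 (chromosome 14, 55587441 to 55591113) form the PA28 ring that opens the core in immune cells. Psme1 was at 113, 84.9, 74.4 and 96.8 FPKM in WT and at 63.3, 95.5, 59.0 and 74.2 FPKM in Nynrin-KO. The groups overlapped and the log2 change was -0.34 (95% interval -0.84 to 0.15, limma adjusted p = 0.276). Psme2 was at 157, 122, 79.5 and 152 FPKM in WT and at 86.4, 152, 106 and 109 FPKM in Nynrin-KO, with a log2 change of -0.15 (95% interval -0.77 to 0.46). KO2 again stood highest of its group in both genes. Both genes lie 272.5 and 262.9 kb from Nynrin on chromosome 14, and a near copy of Psme2 named Psme2b, at 38.6 to 84.8 FPKM, can share its reads.

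Psme3, the activator of the nuclear core particle, fell. It was at 57.9, 45.8, 25.4 and 20.8 FPKM in WT and at 17.7, 22.2, 11.3 and 14.1 FPKM in Nynrin-KO. KO2 lay above WT4, the log2 change was -1.08 (SE 0.34, limma adjusted p = 0.0451), and the call was lost without WT1, WT2 or any single Nynrin-KO library. Psme4, the large activator linked to histone breakdown, was at 2.99, 3.79, 2.12 and 2.74 FPKM in WT and at 3.46, 5.17, 6.75 and 4.15 FPKM in Nynrin-KO. Only KO1 lay within the WT range, and the log2 change of 0.57 did not pass (SE 0.22, adjusted p = 0.0767). It passed when every library had to hold at least 1 FPKM (adjusted p = 0.0471), as did 16.9% of the genes tested that way. Psmf1, an inhibitor of the core, was at 5.14 ± 0.906 and 4.43 ± 1.09 FPKM (SD, n = 4 each) and did not pass.

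Of the 4 assembly chaperones of the core, which pair the alpha subunits before the beta ring is added, 3 fell. Over all genes tested 13.8% fell. Psmg4 changed most, from 39.8, 36.4, 11.9 and 17.9 FPKM in WT to 6.27, 14.1, 4.93 and 11.9 FPKM in Nynrin-KO. The WT libraries were split into a high and a low pair, and KO2 lay above WT3. The log2 change was -1.37 (SE 0.44, limma adjusted p = 0.0460), and the call was lost without WT1, WT2, WT4, KO1, KO3 or KO4. Psmg1 and Psmg2 fell with log2 changes of -0.91 and -0.85. Psmg1 lost its call without WT1, WT2, WT4, KO1, KO2 or KO3, and Psmg2 without WT1 or WT2. Psmg3, at 2.60 ± 0.711 and 1.52 ± 0.698 FPKM, did not pass.

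The core subunits of other tissues were low. Psma8, the alpha subunit of testis, was listed at 0, 0.221, 0 and 0.302 FPKM in WT, from 0, 3, 0 and 10 reads. In Nynrin-KO it was at 0.715, 1.718, 1.71 and 2.07 FPKM, from 13, 76, 6 and 114 reads. All Nynrin-KO libraries lay above all WT libraries, but the gene did not pass the filter and was not tested. Psmb11, the beta subunit of thymic epithelium, was at most 0.993 FPKM in any library, with overlapping groups.

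Of 22 other listed genes for maturation, ubiquitin shuttling and control, 4 fell (18.2%, near the 13.8% of all genes) and 1 rose. Vcp, the segregase that unfolds ubiquitinated proteins, went from 127 to 48.7 FPKM (log2 change -1.34, limma adjusted p = 0.0104). Txnl1 and Usp14, which bind the cap, fell with log2 changes of -1.07 and -0.97, and Pomp, the maturation factor of the core, also fell. Zfand5, an activator of the proteasome, rose by 0.79 on the log2 scale, from 13.1 to 23.6 FPKM, against 14.0% of all genes tested that rose. Nfe2l1, the transcription factor of constitutive proteasome genes, was at 3.88, 2.94, 3.83 and 4.01 FPKM in WT and at 2.49, 4.19, 0.470 and 3.15 FPKM in Nynrin-KO and did not pass. It was chosen for naming after its values were seen. Among the ubiquitin and ubiquitin-activating genes, Rps27a, a fusion of ubiquitin with a ribosomal protein, fell with a log2 change of -1.59, and the activating enzyme Uba6 rose by 0.84. Uba1, the main activating enzyme, did not pass (log2 change -0.56).

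The genes around the immunoproteasome moved in both directions. Of 15 interferon regulators 9 rose and 1 fell, with a median log2 change of 1.011, where 14.0% of all genes rose and 13.8% fell. Irf8 was the 1 that fell, from a mean of 120 to 37.6 FPKM without overlap (log2 change -1.74, limma adjusted p = 0.0126). Irf8 was chosen for naming after its values were seen. Irf1, a direct regulator of Psmb8 and Psmb9, was at 21.3, 20.3, 28.4 and 35.8 FPKM in WT and at 58.4, 108, 52.0 and 57.5 FPKM in Nynrin-KO. The groups did not overlap, and KO2 was the highest, as it was for Psmb9 and Psmb10. The log2 change of Irf1 was 1.32 (limma adjusted p = 0.00973), and Irf2 and Jak2 rose by 1.37 and 1.011. Of the 11 peptide-loading genes 3 fell and none rose, against the same 13.8% and 14.0% of all genes. Calr, Canx and Pdia3, chaperones of the endoplasmic reticulum with many other clients, fell with log2 changes of -2.67, -1.42 and -1.07, and the peptide trimming gene Erap1 did not pass (log2 change -0.52). Tap1, the peptide transporter next to Psmb9, was at 17.8, 10.3, 8.47 and 17.8 FPKM in WT and at 19.6, 47.5, 17.4 and 16.4 FPKM in Nynrin-KO and did not pass (log2 change 0.77, adjusted p = 0.155). It was chosen for naming after its values were seen.

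A pair of other large complexes was set beside the proteasome. Of the 10 genes of the COP9 signalosome, whose subunits are related to the 19S lid, 3 fell (against 13.8% of all genes), with a median log2 change of -0.67. Those were Cops7a, Cops3 and Gps1, with log2 changes of -1.33, -0.82 and -0.996, and Cops5, its catalytic subunit, did not pass (log2 change -0.59). All 8 genes of the CCT chaperonin, which folds actin and tubulin, fell, and their median log2 change was -1.54. Cct6a went from 151 to 32.7 FPKM, and Cct5, Cct8 and Tcp1 fell with log2 changes of -1.79, -1.73 and -1.54. The difference between these complexes and the proteasome was not tested.

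**Figure D4:**
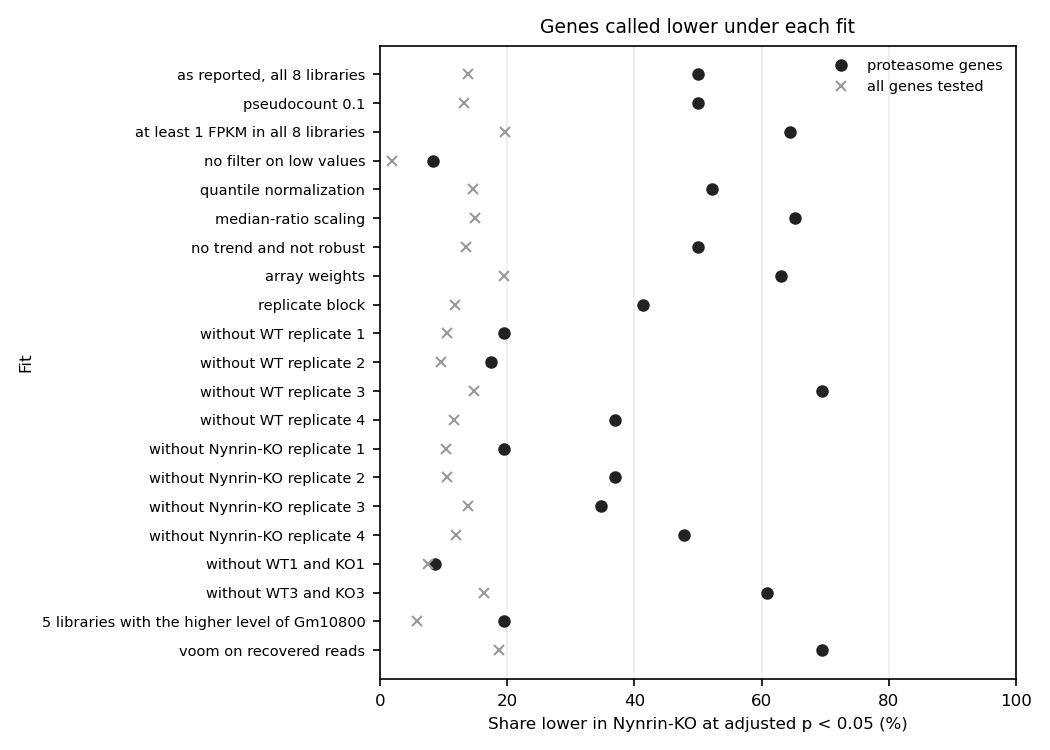
Share of the tested proteasome genes (filled points) and of all genes tested (crosses) that were lower in Nynrin-KO at an adjusted p under 0.05, in percent, for the reported fit and 20 alternatives. The proteasome share lies above that of all genes in each fit and comes nearest to it without WT1 and KO1 (8.70% against 7.62%).

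Across the fits in the plot of called shares, the proteasome genes fell more often than all genes, by a margin that ranged widely. With no filter on low values 8.33% of the proteasome genes fell against 1.87% of all genes. With 1 FPKM needed in all 8 libraries the shares were 64.4% and 19.7%, with median-ratio scaling 65.2% and 15.0%, and with quantile normalization 52.2% and 14.7%. A pseudocount of 0.1 gave 50% and 13.2%, and limma without trend and robust estimation gave 50% and 13.6%. Array weights gave 63.0% and 19.5%, voom on recovered reads 69.6% and 18.7%, and the replicate number as a block 41.3% and 11.8%. Among the fits without 1 library, the share for all genes was 14.8% without WT3, 11.6% without WT4, 10.6% without KO2, 13.8% without KO3 and 12.0% without KO4. The proteasome shares in those fits were 69.6%, 37.0%, 37.0%, 34.8% and 47.8%. Without WT3 and KO3, the shallowest pair, they were 60.9% and 16.4%. At an adjusted p under 0.01, 4 of the 46 proteasome genes fell (Psma7, Psmb1, Psmb2 and Psmd1), a share near the 6.25% of all genes. At an adjusted p under 0.1, 18.2% of all genes fell and 18.5% rose, and of the 46 proteasome genes 33 fell and Psme4 rose.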

How the data were processed

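The deposited table holds 1 FPKM value per gene for 8 bulk RNA-seq libraries, made from few sorted cells and amplified with an ultra-low input kit, per the labels' protocols. The FPKM values are the authors', and the file header names no unit. The submitters' processing notes name Cufflinks 2.1.1, Bowtie 0.12.9, HTSeq and the build mm10, without saying what each was used for. Counting rules, strand and multi-mapped reads have no source here. FPKM times the longest GENCODE M21 transcript gave whole reads for 99.43% to 99.46% of values (within 0.1 read), and recovered depth was 1.83 to 33.09 M reads (M for mega) per library. Of the table's genes, 99.62% matched that annotation. A gene with few reads, such as Psma8, carries the larger counting error.

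Changes were fitted over all 12524 genes that reached 1 FPKM in 4 or more libraries, with limma 3.58.1 in R 4.3.3 on log2(FPKM + 1) (trend and robust), and p-values were adjusted by Benjamini-Hochberg over all of them. A change on this scale understates the fold of low genes. "Fell" and "rose" mean an adjusted p under 0.05. Ratios of inducible to constitutive genes were compared by an exact two-sided permutation test over libraries (scipy 1.17.1). The limma script was tested on simulated data with known changes. Named were the catalytic genes, all Psme genes, Psmf1, Psma8, Psmb11, the largest and smallest change in each other structural group, and the 4 lowest p in each list, of which some are not reported here. Markers are named by their role in checking the sort. The members and lists were chosen with earlier results of these data known. Promoters are RefSeq's, and a motif was counted on either strand. Alternatives were another pseudocount, other filters, scalings, weights, limma options, thresholds, left-out libraries, a replicate block and voom on recovered reads.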

Additional observations from a re-analysis of the deposited data

Results flagged for a closer look

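Psmd10 in WT3, at 3.56 FPKM, lay far from the other WT libraries (13.4, 16.5 and 13.3 FPKM). Its gap to the nearest of them was 0.852 of the range of the group on the log2(FPKM + 1) scale, above Dixon's 95% critical value for 4 samples. Chance flags about 1 in 20 groups, and 96 groups were tested. WT3 held 1.96 M reads, the fewest in WT.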

How the results depend on the processing

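All 14 constitutive core genes and all 17 cap genes stayed below 0 in the 20 alternative fits, and 42 of the 46 genes kept their direction in all of them (not Psmb9, Psmb10, Psme1 and Psme2). The number that passed moved more. Of the 23 genes that fell, 4 did so in every alternative. Leaving out 1 library gave 8 to 32 genes that fell and 0 to 0 that rose, with 6 to 14 for the core, 1 to 13 for the cap, 0 to 1 for the inducible genes, 0 to 1 for the activators and 0 to 3 for the core's assembly chaperones. Without WT1 and KO1, 4 genes fell, of which 3 were in the core, 1 in the cap, 0 among the activators and 0 among the core's assembly chaperones. With no filter on low values the counts were 4 in all, 3 in the core, 1 in the cap, 0 activators and 0 assembly chaperones. In the 5 libraries with more Gm10800 they were 9 in all, 5 in the core, 3 in the cap, 1 inducible gene (Psmb8), 0 activators and 0 assembly chaperones. At an adjusted p under 0.01 they were 4 of 46 in all, 3 in the core, 1 in the cap, 0 activators and 0 assembly chaperones. The share in all was near the 6.25% of all genes that fell. At an adjusted p under 0.1 the cap had 13 and the inducible genes 1, and 1 gene rose. With at least 1 FPKM in all 8 libraries, 1 inducible gene fell and 1 gene, Psme4, rose. Voom on recovered reads gave 1 inducible gene. With array weights, and without WT3 and KO3, 0 activators fell. The causes were not tested, beyond the fewer samples or the larger number of genes in those fits.

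The titles number the libraries of both groups alike. Deviations from the group means correlated at -0.213, -0.389, 0.329 and 0.008 for the numbers 1 to 4, so the libraries share only a number. With the replicate number as a block 19 genes fell and none rose. The ratio differences under that block, by an exact sign-flip test, were 0.20 (p = 1), 0.66 (p = 0.25) and 0.80 (p = 0.125) for Psmb8 over Psmb5, Psmb9 over Psmb6 and Psmb10 over Psmb7. With 4 pairs that test gives 0.125 at the lowest, so no ratio could have passed it. Over the fits that leave out 1 library they ran from -0.02 to 0.362, from 0.482 to 0.842 and from 0.539 to 0.953. With 3 libraries a group or fewer the permutation test cannot reach 0.05 either, so those settings are values only.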
